A study of Rattus norvegicus with 25 samples.

Results

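The machinery that moves and cleaves the sterol regulatory element-binding proteins (SREBPs), together with the ubiquitin ligase that controls the LDL receptor, was measured in rat hepatoma lines that express Sar1 GTPases. Its 8 genes (Srebf1, Srebf2, Scap, Insig1, Insig2, Mbtps1, Mbtps2 and Mylip) were taken by name, and every probe set that the array's annotation gives to exactly 1 of these symbols was used. This gave 12 probe sets of the 31042 that were tested and 8 of the 14217 genes with a probe set of their own. The rule names genes and uses no measured value, although the genes were picked with earlier results of these data known. Srebf1, Srebf2, Scap and Insig2 had 2 probe sets each, and Insig1, Mbtps1, Mbtps2 and Mylip had 1 each. No probe set was removed for low signal, and 11 of the 12 lay above the median probe set of the array. The exception was Srebf2 probe set 1377489_at, at the 21.9th percentile.

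SREBPs are made as membrane proteins of the endoplasmic reticulum. There they bind the escort protein SCAP, and when sterols are low the pair enters COPII vesicles, whose formation the Sar1 GTPases start, and travels to the Golgi. The site-1 and site-2 proteases then release the SREBP fragment that enters the nucleus, where SREBP-2 favours genes of cholesterol synthesis and LDL uptake and the SREBP-1 forms favour genes of fatty acid synthesis. When sterols are high, the Insig proteins hold SCAP back. Insig1 is itself an SREBP target, so its RNA is often read together with SREBP activity. Mylip encodes IDOL, a ubiquitin ligase induced by the liver X receptors (LXRs) that sends the LDL receptor to the lysosome.

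All 4 groups were stable lines of McArdle-RH7777, an established rat hepatoma line, that carried the tetracycline repressor plasmid pcDNA6/TR and were kept under blasticidin and zeocin. Every line received 1 µg/ml tetracycline for 24 h before harvest. The Sar1B:H79G group held 2 lines and 8 arrays, and expressed human SAR1B with a substitution that blocks GTP hydrolysis and keeps the protein active. The Sar1B group held 2 lines and 8 arrays with wild-type human SAR1B, and the Sar1A group held 1 line and 4 arrays with human SAR1A. The study reported more recombinant Sar1 protein in its Sar1A lines than in its Sar1B and Sar1B:H79G lines. The part of this difference in the results was not tested. The control group held 2 lines, with 2 and 3 arrays, that carried the vector without an insert. Each line came from a picked clone, so a difference between 2 lines of a group is a difference between clones. The arrays of a line were repeat measurements of it, so they were averaged and the line was the replicate. With 1 line, the Sar1A group was assumed to vary like the others.

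Values are log2 signals on Affymetrix rat genome arrays. The medians of the 25 arrays lay between 8.096 and 8.161. Pairs of arrays had a median r of 0.9954 for the same line, 0.9908 for the 2 lines of a group and 0.9772 across groups. The array names of all control arrays shared 1 prefix and those of all other arrays another, so this division and the comparison with control cannot be told apart. Comparisons among the Sar1 lines lay within 1 prefix. The 5′ minus 3′ signal of the 7 pairs of polyadenylated spike-in controls was −0.95 in both Sar1B:H79G lines, −0.95 and −0.93 in the Sar1B lines and −0.99 in the Sar1A line, against −1.76 and −1.88 in the control lines. For β-actin it was −0.71 and −0.63 in the Sar1B:H79G lines, −0.50 and −0.49 in the Sar1B lines and −0.61 in the Sar1A line, against −0.81 and −0.94 in the control lines. The part of these differences in the results was not tested. The hepatocyte markers Alb, Ttr, Afp, Apoa1, Fgb, Hnf4a and Serpina1 lay at the 89.2nd to 99.9th percentile of the probe sets, and 9 markers of fibroblasts, endothelium and leukocytes at the 2.6th to 50.6th. Hnf4a, a transcription factor that sustains hepatocyte identity, was lower in Sar1B:H79G lines than in control lines by −0.78 ± 0.08 (SE, adjusted p = 0.0025), than in Sar1B lines by −0.92 ± 0.08 (adjusted p = 0.0030) and than in the Sar1A line by −0.63 ± 0.09 (adjusted p = 0.0270). Serpina1 was lower than in control lines only, by −0.64 ± 0.16 (adjusted p = 0.0350). The other 5 hepatocyte markers were not called, the median of the 7 was −0.43 against control, −0.25 against Sar1B and −0.27 against Sar1A, and their part in the results was not tested. The rat Sar1a probe set was higher in the Sar1A line than in control lines, by 1.72 ± 0.24 (adjusted p = 0.0431), and also in Sar1B:H79G lines, by 1.49 ± 0.20 (adjusted p = 0.0058). The part of the human transgene RNAs in these signals was not tested.

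The promoters of the 4 genes that were lower in Sar1B:H79G than in control lines are shown, a choice made from these data. SREBP, NF-Y and Sp1 are known to act together on promoters of SREBP targets. All 8 genes had a promoter in the RefSeq table (build GRCr8), with 9 starts in all because Srebf1 has 2, and each sequence covers positions −170 to −1 before the start, 5′ to 3′. Capitals mark any match on either strand to TCACCCNA (the core of a sterol regulatory element), CACGTG (an E-box), CCAAT (the box bound by NF-Y) or GGGCGG (a GC box bound by Sp1).
Insig1, chr4:8057770-8057939, minus strand: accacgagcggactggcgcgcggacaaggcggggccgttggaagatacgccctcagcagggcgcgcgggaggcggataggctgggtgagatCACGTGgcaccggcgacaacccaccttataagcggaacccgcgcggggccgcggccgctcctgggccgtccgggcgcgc
Srebf1, upstream start, chr10:45529165-45529334, minus strand: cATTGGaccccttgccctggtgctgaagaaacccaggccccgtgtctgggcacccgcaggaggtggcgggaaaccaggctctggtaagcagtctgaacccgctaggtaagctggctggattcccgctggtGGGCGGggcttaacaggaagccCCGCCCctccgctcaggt
Srebf1, downstream start, chr10:45519011-45519180, minus strand: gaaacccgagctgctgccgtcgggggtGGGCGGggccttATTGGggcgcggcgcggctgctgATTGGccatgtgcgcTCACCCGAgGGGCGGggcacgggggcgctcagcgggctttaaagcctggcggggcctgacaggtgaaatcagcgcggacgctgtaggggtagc
Srebf2, chr7:115543137-115543306, plus strand: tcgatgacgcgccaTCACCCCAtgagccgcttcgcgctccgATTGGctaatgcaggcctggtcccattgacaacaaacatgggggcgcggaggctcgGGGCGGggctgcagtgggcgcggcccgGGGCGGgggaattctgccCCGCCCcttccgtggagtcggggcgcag
Mylip, chr17:19514472-19514641, minus strand: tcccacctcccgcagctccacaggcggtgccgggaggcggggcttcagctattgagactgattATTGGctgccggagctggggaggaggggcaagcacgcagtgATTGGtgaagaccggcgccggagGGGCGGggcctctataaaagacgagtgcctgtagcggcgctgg
TCACCCNA stood in 2 of the 9 starts, those of Srebf2 at −156 and of the downstream Srebf1 start at −93, and in 1.97% of 33469 promoters over the same window. CCAAT stood in 5 of the 9 (25.9% of all promoters), GGGCGG in 6 of the 9 (27.1%) and CACGTG in 2 of the 9 (4.12%), at −79 in Insig1 and at −50 in Scap. The downstream Srebf1 start had its element between 2 CCAAT boxes and a GC box. These are matches of letters, and the arrays did not measure binding. The arrays do not say which Srebf1 start the transcripts came from.

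The members divided into those that were lower in Sar1B:H79G lines, those that did not pass the test, and none that passed it upwards. Against control, 4 of the 12 probe sets were called at an adjusted p under 0.05 (limma, Benjamini-Hochberg over all probe sets), all lower, where 22.3% of all probe sets were called and 9.17% were called lower. They were Insig1, 1 probe set of Srebf1, 1 of Srebf2 and Mylip. The median log2 fold change of the 12 was −0.13, against 0.03 over all probe sets. The arrays of both groups did not overlap for 5 of the 12 (27.6% of all probe sets). Against Sar1B, 5 of the 12 were called, all lower (8.63% of all probe sets called, 5.29% lower), namely Insig1, both Srebf1 probe sets, 1 probe set of Scap and Mbtps1. The median there was −0.28, against 0.01 over all probe sets. Against Sar1A, 2 of the 12 were called, Insig1 and 1 probe set of Srebf1, both lower (2.96% of all probe sets called, 1.63% lower). The arrays did not overlap for 6 of the 12 against Sar1B (13.2% of all probe sets) and for 7 against Sar1A (16.4%).

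**Figure D1:**
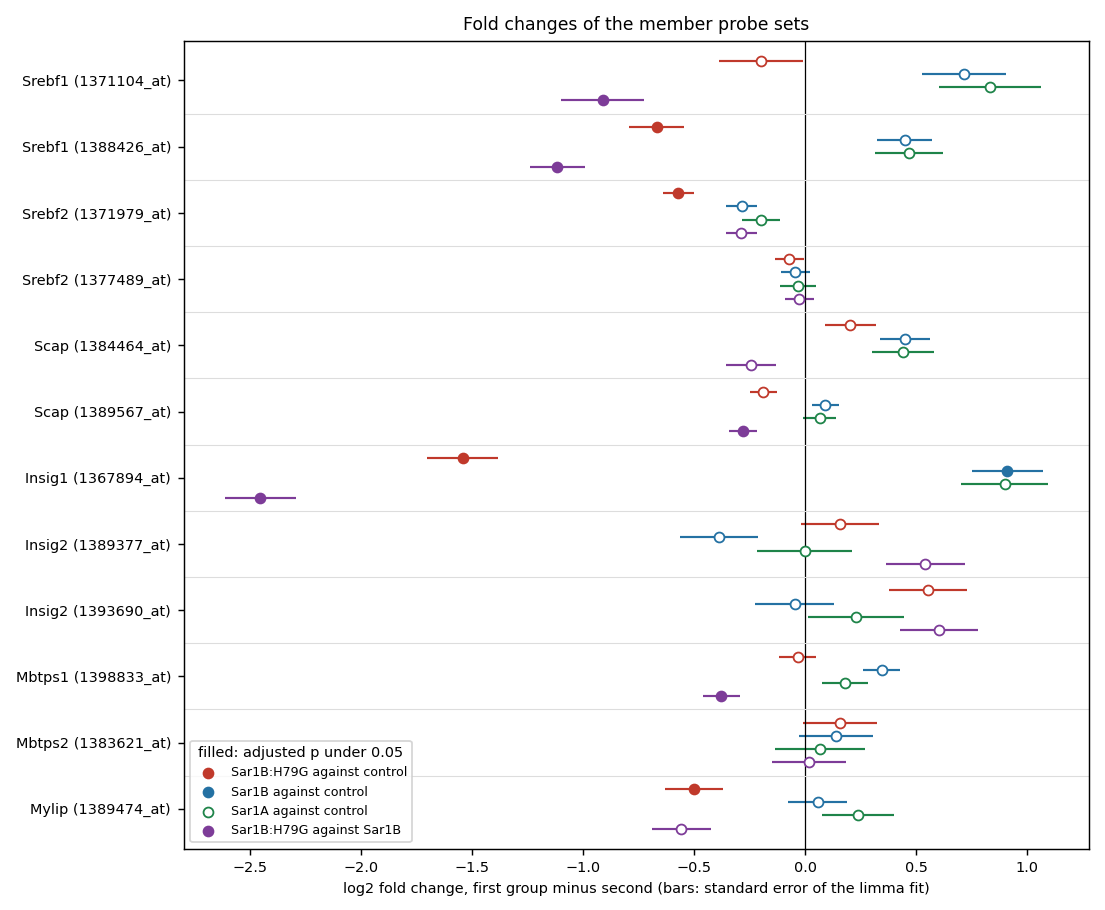
Log2 fold change of each member probe set (rows) with the standard error of the limma fit, for Sar1B:H79G, Sar1B and Sar1A against control and for Sar1B:H79G against Sar1B; filled points passed an adjusted p under 0.05. Insig1 reached −2.45 against Sar1B and −1.54 against control in Sar1B:H79G lines, and no filled point of a Sar1B:H79G comparison lies right of 0.

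Wild-type Sar1B and Sar1A were compared with control and with each other. In Sar1B lines against control 1 of the 12 was called by limma, Insig1, which was higher. That is near the share of all probe sets (8.29% called, 6.28% higher). In the Sar1A line against control 0 of the 12 were called by limma, where 1.18% of all probe sets were called. An unadjusted limma p under 0.05 was reached by 6 of the 12 in Sar1B and by 4 in Sar1A against control. The share of all probe sets under that unadjusted threshold was not computed, so these counts are not read as an excess. Sar1A against Sar1B gave 0 calls and 0 unadjusted p under 0.05 among the 12, at a median of 0.02, and 0.00322% of all probe sets were called. The arrays did not overlap for 6 of the 12 in Sar1B against control (19.0% of all probe sets), for 6 in Sar1A against control (29.0%) and for 2 in Sar1A against Sar1B (7.51%). With every array taken as a replicate, limma called 6 of the 12 in Sar1A against control (36.2% of all probe sets) and 1 in Sar1A against Sar1B (10.3%).

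Srebf1 encodes SREBP-1a and SREBP-1c from alternative first exons. On its brighter probe set, 1388426_at, the line means were 10.65 ± 0.05 and 10.44 ± 0.08 in Sar1B:H79G lines (SD, n = 4 arrays each), 11.65 ± 0.11 and 11.67 ± 0.20 in Sar1B lines (n = 4 each) and 11.68 ± 0.09 in the Sar1A line (n = 4), against 11.37 ± 0.06 (n = 2) and 11.05 ± 0.03 (n = 3) in control lines. All 8 Sar1B:H79G arrays lay below all other arrays. The difference was −0.67 ± 0.12 from control (SE, adjusted p = 0.0159), −1.12 ± 0.12 from Sar1B (adjusted p = 0.0063) and −1.14 ± 0.15 from Sar1A (adjusted p = 0.0215). Leaving out control line 1 (adjusted p = 0.0520) or Sar1B:H79G line 2 (0.0538) ended the call against control, and leaving out Sar1B:H79G line 2 ended that against Sar1A (0.0511), as did a fit of only these 2 groups (0.0929). As the mean of both Srebf1 probe sets the difference from control was −0.43 ± 0.16 and not called (adjusted p = 0.0958). Sar1B and Sar1A lines had values above control by 0.45 ± 0.12 and 0.47 ± 0.15, neither of them called (adjusted p = 0.0776 and 0.1529).

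The other Srebf1 probe set, 1371104_at, placed the control lines lower in that order. Its line means were 9.73 and 9.26 in Sar1B:H79G lines, 10.35 and 10.46 in Sar1B lines and 10.52 in the Sar1A line, against 9.89 and 9.49 in control lines. Sar1B:H79G and control arrays overlapped, and their difference was −0.20 ± 0.19 (adjusted p = 0.4731), so this probe set did not carry the call against control. Against Sar1B it was −0.91 ± 0.19 (adjusted p = 0.0375). Among the fits with 1 numbered line left out, only that without Sar1B:H79G line 1 kept this call. The differences in these fits were −1.15 to −0.68. The value in Sar1B lines was 0.72 ± 0.19 above control (adjusted p = 0.0693) and was called when either Sar1B:H79G line was left out of the fit (0.0404). The 2 Srebf1 probe sets had r = 0.91 over the 7 line means.

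Srebf2, which encodes SREBP-2, had its highest level in control lines. On probe set 1371979_at the line means were 10.38 ± 0.10 and 10.43 ± 0.17 in Sar1B:H79G lines (SD, n = 4 arrays each), 10.72 ± 0.07 and 10.67 ± 0.08 in Sar1B lines (n = 4 each) and 10.78 ± 0.03 in the Sar1A line (n = 4), against 11.04 ± 0.03 (n = 2) and 10.93 ± 0.07 (n = 3) in control lines. Every Sar1 array lay below every control array. The level in Sar1B:H79G lines was lower than in control lines by −0.57 ± 0.07 (SE, adjusted p = 0.0045), a call kept under all 14 alternatives. The difference of Sar1B:H79G from Sar1B was −0.29 ± 0.07 (adjusted p = 0.0598), with overlapping arrays, and that of Sar1B from control was also −0.29 ± 0.07 (adjusted p = 0.0594). By group means the wild-type Sar1B and Sar1A lines stood below control for Srebf2 and above control for Srebf1 and Insig1. Of these differences only that of Insig1 in Sar1B lines was called, and all of them cross the array-name prefixes. The dim probe set 1377489_at varied by 0.13 over the line means and had no difference past the test (adjusted p = 0.4587 for Sar1B:H79G against control).

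Scap encodes the sterol-sensing escort of the SREBPs. On probe set 1389567_at its line means were 10.08 and 10.02 in Sar1B:H79G lines, 10.33 and 10.32 in Sar1B lines and 10.30 in the Sar1A line, against 10.23 and 10.24 in control lines. Sar1B:H79G lines held the lowest levels, but their arrays, at 9.97 to 10.19, overlapped those of Sar1B at 10.05 to 10.45 and those of control at 10.19 to 10.31. The difference was −0.28 ± 0.06 from Sar1B (adjusted p = 0.0443) and −0.19 ± 0.06 from control (adjusted p = 0.0718). The call against Sar1B was lost under 12 of 14 alternatives, including each numbered line left out. It was also lost for the mean of both Scap probe sets (−0.26 ± 0.08, adjusted p = 0.0898). Probe set 1384464_at read 8.43 and 8.17 in Sar1B:H79G lines, 8.49 and 8.60 in Sar1B lines and 8.54 in the Sar1A line, against 8.187 and 8.004 in control lines. The control mean of 8.096 was the lowest of the group means here, although Sar1B:H79G line 2 lay below control line 1. Its difference of Sar1B:H79G from control was 0.20 ± 0.11 (adjusted p = 0.2334), opposite in sign to that of the brighter probe set, and the 2 probe sets had r = 0.44 over the 7 line means. No direction for Scap against control is therefore given. The value of 1384464_at in Sar1B lines was 0.45 ± 0.11 above control (adjusted p = 0.0635) and was called when either Sar1B:H79G line was left out of the fit (adjusted p = 0.0443).

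Insig1, which retains SCAP in the endoplasmic reticulum, had the widest range of all 12 member probe sets, 2.68 over the line means. On probe set 1367894_at the 4 arrays of Sar1B:H79G line 1 read 9.31, 9.32, 9.49 and 9.53, and those of Sar1B:H79G line 2 read 8.95, 9.06, 8.97 and 9.14. The Sar1B lines read 11.60, 11.70, 11.67 and 11.60, and 11.77, 11.65, 11.77 and 11.65. The Sar1A line read 11.54, 11.68, 11.60 and 11.83, and the control lines read 11.000 and 10.88, and 10.54, 10.56 and 10.68. The 3 tiers did not overlap: Sar1B:H79G arrays were lowest, control arrays lay between, and Sar1B and Sar1A arrays were together at the top. Insig1 was 2.91-fold lower in Sar1B:H79G than in control lines (−1.54 ± 0.16, SE, adjusted p = 0.0031), 5.48-fold lower than in Sar1B lines (−2.45 ± 0.16, adjusted p = 0.0020) and 5.43-fold lower than in the Sar1A line (−2.44 ± 0.20, adjusted p = 0.0075). With only the 2 groups in the fit the difference from Sar1A was not called (adjusted p = 0.0690). The calls against control and against Sar1B were kept under all 14 alternatives. Insig1 was 1.88-fold higher in Sar1B than in control lines (0.91 ± 0.16, adjusted p = 0.0288), a call lost when either control line or either Sar1B line was left out (adjusted p = 0.0545 to 0.1728). The difference of the Sar1A line from control was of like size, 0.90 ± 0.20, and missed the threshold (adjusted p = 0.0799). The printed sequence before the Insig1 start held an E-box and none of the other letters searched.

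Insig2 encodes the second Insig protein, whose gene is not known as an SREBP target. In Sar1B:H79G lines its group means lay above control and Sar1B, the reverse of Insig1, without passing the test. On probe set 1393690_at the line means were 10.22 ± 0.09 and 10.72 ± 0.07 in Sar1B:H79G lines (SD, n = 4 arrays each), 9.80 ± 0.08 and 9.94 ± 0.12 in Sar1B lines (n = 4 each) and 10.15 ± 0.08 in the Sar1A line (n = 4), against 10.06 ± 0.05 (n = 2) and 9.78 ± 0.08 (n = 3) in control lines. The Sar1B:H79G arrays all lay above the Sar1B and the control arrays, yet the 2 Sar1B:H79G clones differed from each other by nearly as much as their mean did from control. The difference was 0.55 ± 0.18 from control (adjusted p = 0.0703) and 0.60 ± 0.18 from Sar1B (adjusted p = 0.1026). Without Sar1B:H79G line 1, limma called both (adjusted p = 0.0188 and 0.0255). On probe set 1389377_at the Sar1B:H79G clones stood at 9.91 and 10.46, the Sar1B lines at 9.64 and 9.65, the Sar1A line at 10.03 and the control lines at 10.13 and 9.93, and the difference from control was 0.16 ± 0.18 (adjusted p = 0.5470). That from Sar1B was 0.54 ± 0.18 (adjusted p = 0.1325, or 0.0173 without Sar1B:H79G line 1). Without Sar1B:H79G line 2 the difference from control on 1389377_at changed sign, to −0.12.

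**Figure D2:**
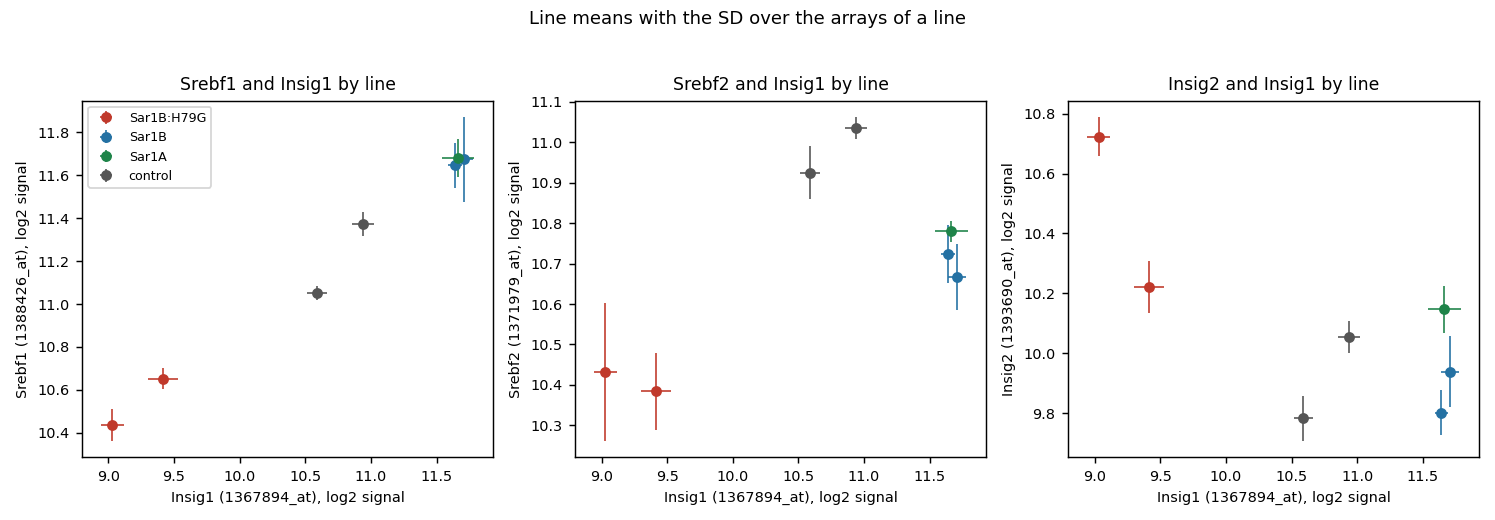
Line means of Srebf1, Srebf2 and Insig2 (vertical axes, log2 signal) against that of Insig1 (horizontal axis, log2 signal), with the SD over the arrays of a line; colours mark Sar1B:H79G, Sar1B, Sar1A and control lines. Insig1 and Srebf1 were both lowest in Sar1B:H79G lines, with control next, Srebf2 was highest in the control lines at 11.04 and 10.93, and Insig2 was highest in Sar1B:H79G line 2 at 10.72.

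Mbtps1 and Mbtps2 encode the site-1 and site-2 proteases that cleave SREBPs in the Golgi. Mbtps1 had line means of 9.92 and 9.94 in Sar1B:H79G lines, 10.23 and 10.39 in Sar1B lines and 10.14 in the Sar1A line, against 10.03 and 9.90 in control lines. Sar1B:H79G arrays lay below all Sar1B arrays and overlapped the control arrays. The difference was −0.38 ± 0.08 from Sar1B (adjusted p = 0.0458) and −0.03 ± 0.08 from control (adjusted p = 0.7926). The call against Sar1B was lost under 10 of 14 alternatives, including each numbered line left out (−0.461 to −0.295). Mbtps2 had line means of 9.82 and 10.23 in Sar1B:H79G lines, 10.04 and 9.97 in Sar1B lines and 9.93 in the Sar1A line, against 9.69 and 10.04 in control lines. Its 4 groups overlapped in all of these values, and the clones of 1 group differed by more than any group means did. None of its comparisons was called, and the difference of Sar1B:H79G was 0.16 ± 0.17 from control (adjusted p = 0.5192) and 0.02 ± 0.17 from Sar1B (adjusted p = 0.9781).

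Mylip was lower in Sar1B:H79G lines. Its line means were 7.72 ± 0.17 and 8.11 ± 0.08 there (SD, n = 4 arrays each), 8.41 ± 0.05 and 8.54 ± 0.19 in Sar1B lines (n = 4 each) and 8.65 ± 0.17 in the Sar1A line (n = 4), against 8.44 ± 0.07 (n = 2) and 8.39 ± 0.09 (n = 3) in control lines. The highest Sar1B:H79G array, at 8.22, lay below the lowest of every other group, and the Sar1B, Sar1A and control arrays overlapped. The difference was −0.50 ± 0.13 from control (SE, adjusted p = 0.0431), −0.56 ± 0.13 from Sar1B (adjusted p = 0.0562) and −0.74 ± 0.16 from Sar1A (adjusted p = 0.0797). The call against control was lost when any numbered line but Sar1B:H79G line 2 was left out. Without Sar1B:H79G line 1 the difference was −0.31. Without Sar1B:H79G line 2 limma also called Mylip against Sar1B (adjusted p = 0.0165) and against Sar1A (0.0272). Sar1B and Sar1A differed from control by 0.06 ± 0.13 and 0.24 ± 0.16 (adjusted p = 0.8101 and 0.4284).

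**Figure D3:**
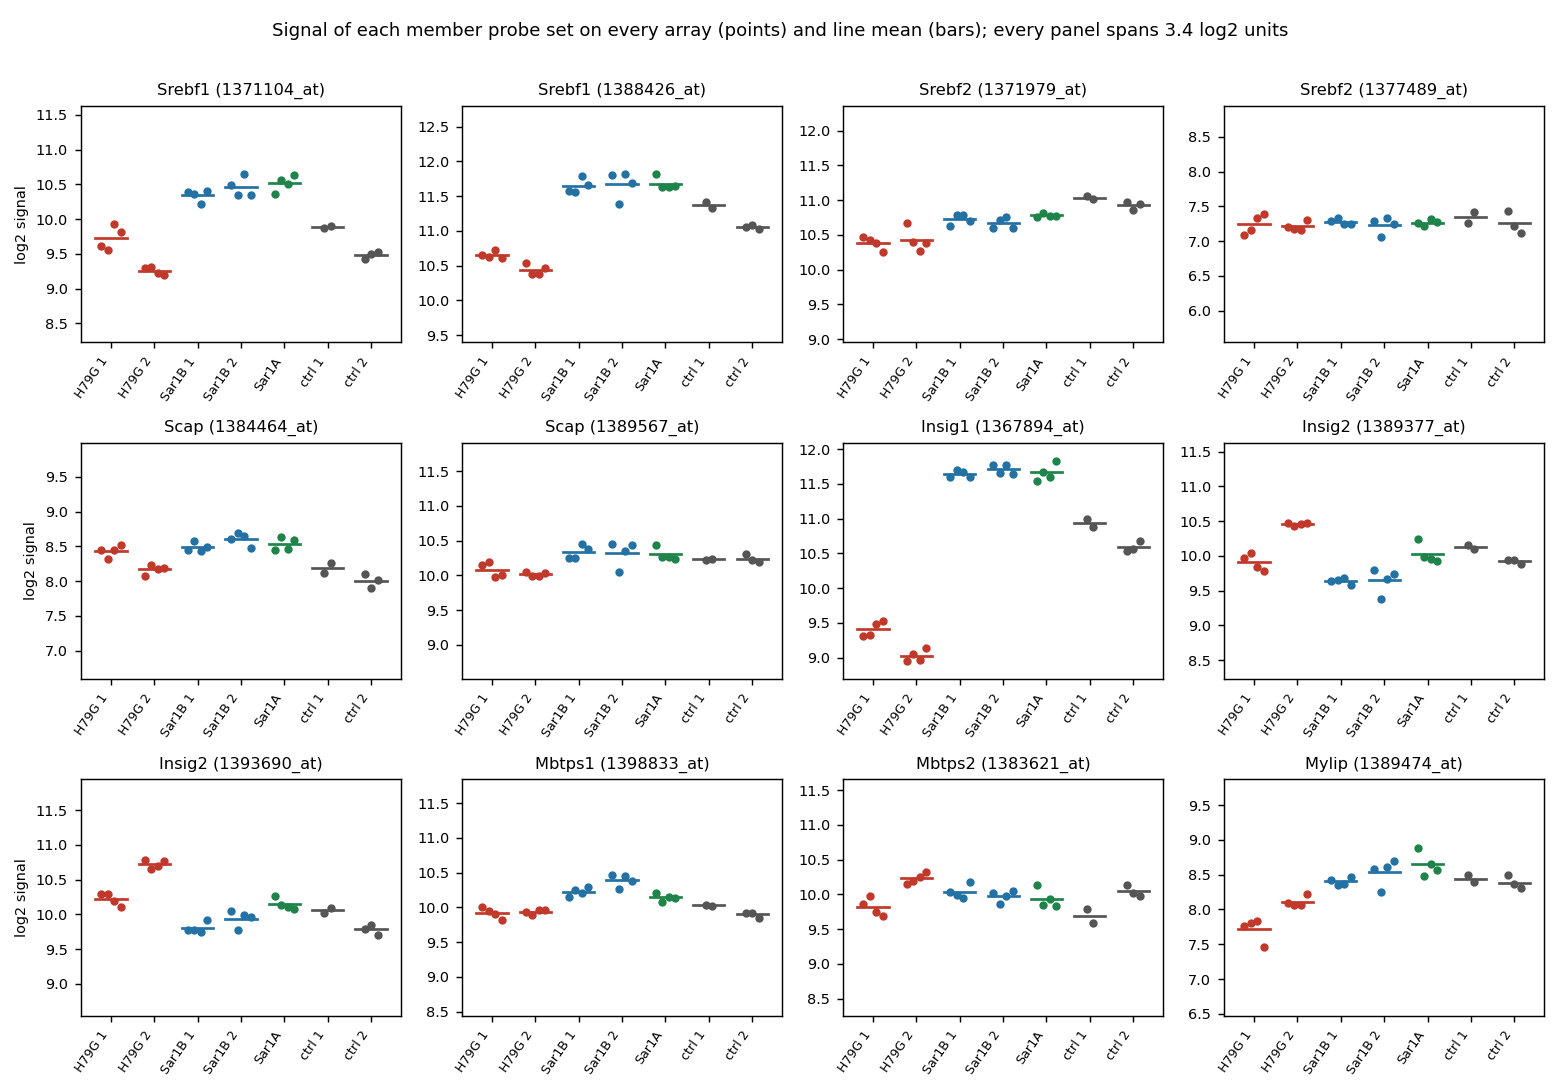
Log2 signal of each of the 12 member probe sets on every array (points) and the mean of each line (bars), with Sar1B:H79G (H79G), Sar1B, Sar1A and control (ctrl) lines from left to right; the panels have different ranges but equal spans. Insig1 shows 3 separate tiers, Mylip 7.72 and 8.11 in the Sar1B:H79G lines against 8.39 to 8.65 elsewhere, and Insig2 and Mbtps2 a gap between the 2 Sar1B:H79G clones.

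The order of the group means, low to high, was compared for the 4 probe sets that were called in Sar1B:H79G against control. For Insig1 and Srebf1 1388426_at it was Sar1B:H79G, control, then Sar1A and Sar1B together, at 11.66 and 11.68 for Insig1 and at 11.68 and 11.66 for Srebf1. Sar1A and Sar1B did not differ by a call there, but the Sar1A group is 1 line without a spread of its own. In that comparison 0.00322% of all probe sets were called. For Srebf1 the step between control and Sar1B was not called either. For Srebf2 1371979_at the order was Sar1B:H79G, Sar1B (10.70), Sar1A (10.78) and control, and only Sar1B:H79G and control differed by a call. For Mylip the order was Sar1B:H79G (7.91 ± 0.28, SD, n = 2 lines), control (8.42 ± 0.04), Sar1B (8.47 ± 0.09) and Sar1A (8.65). Control, Sar1B and Sar1A were neighbours without a call, and only Sar1B:H79G and control differed by a call.

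The genes that SREBPs switch on were examined beside the members, each by its brightest probe set. Of 18 measured genes of cholesterol synthesis, 14 were lower and 0 higher in Sar1B:H79G than in control lines, at a median of −1.0, where 10.6% of all genes were called lower, and the median over all genes was 0.03. Acat2, which makes acetoacetyl-CoA at the head of the pathway, had −2.17 ± 0.10 (SE, adjusted p = 8.976e-04), and Dhcr7, which makes cholesterol in its last step, had −1.94 ± 0.13 (adjusted p = 0.0011). Mvk, Lss, Cyp51 and Sc5d were not called, at −0.20, −0.25, −0.19 and −0.12. Against Sar1B, 16 of the 18 were lower and 0 higher, at a median of −1.16 (7.18% of all genes called lower). In Sar1B against control, 4 of the 18 were higher and 0 lower, at a median of 0.16 (4.72% of all genes called higher).

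Of 13 genes of fatty acid synthesis, 6 were lower and 0 higher in Sar1B:H79G than in control lines, at a median of −0.26 (10.6% of all genes called lower). Fads1, a desaturase of polyunsaturated fatty acids, had −2.42 ± 0.17 (adjusted p = 0.0011), and Scd, which makes oleate, had −1.82 ± 0.20 (adjusted p = 0.0033). Fasn, the fatty acid synthase, stood at 0.05 ± 0.10 (adjusted p = 0.7411). Fewer of the 13 were called with either control line or either Sar1B:H79G line left out, where fewer of all probe sets were called as well. Against Sar1B, 9 of the 13 were lower and 0 higher, at a median of −0.73 (7.18% of all genes called lower). Fewer were called there with any numbered line left out, and fewer of all probe sets too. Both lists are known SREBP targets, and Sar1B:H79G lines served in both of these comparisons, so the 2 counts are not independent. The arrays measured RNA and not the cleavage of SREBPs. By immunoblot, the study of these lines reported more processed SREBP-2 in Sar1B:H79G than in control lines.

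Another list held genes for proteins that hold or degrade SCAP, SREBP and Insig. Of its 11 measured genes 6 were higher and 0 lower in Sar1B:H79G than in control lines, at a median of 0.26 (13.4% of all genes called higher). Erlin1, a part of the complex that binds SREBP and SCAP in the endoplasmic reticulum, had 1.05 ± 0.10 (adjusted p = 0.0025), and Rnf145, a ubiquitin ligase that acts on SCAP, had 0.58 ± 0.16 (adjusted p = 0.0436). Of the 5 not called, Erlin2 and Rnf139 had values of −0.25 and −0.14. Fewer of the 11 were called with either control line or Sar1B:H79G line 2 left out, where fewer of all probe sets were called as well. Against Sar1B only Erlin1 of the 11 was called (4.90% of all genes called higher), at 0.72 ± 0.10 (adjusted p = 0.0114), and it was not called without Sar1B line 2. Of 10 genes of the COPII coat, 7 were higher and 0 lower against control, at a median of 0.69 (13.4% of all genes called higher). They were led by the Sar1a probe set at 1.49 and by Sec24d, a cargo-binding coat subunit, at 1.38 ± 0.16 (adjusted p = 0.0037). Against Sar1B 7 of the 10 were higher, at a median of 0.57 (4.90% of all genes called higher). Fewer were called without Sar1B line 2, where fewer of all probe sets were called as well. Of 8 other substrates of the same proteases, 2 were higher in both comparisons (13.4% of all genes called higher against control and 4.90% against Sar1B). They were Creb3, at 1.43 ± 0.11 against control (adjusted p = 0.0013), and Atf6, the endoplasmic reticulum stress sensor, at 1.07 ± 0.07 (adjusted p = 0.0011).

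**Figure D4:**
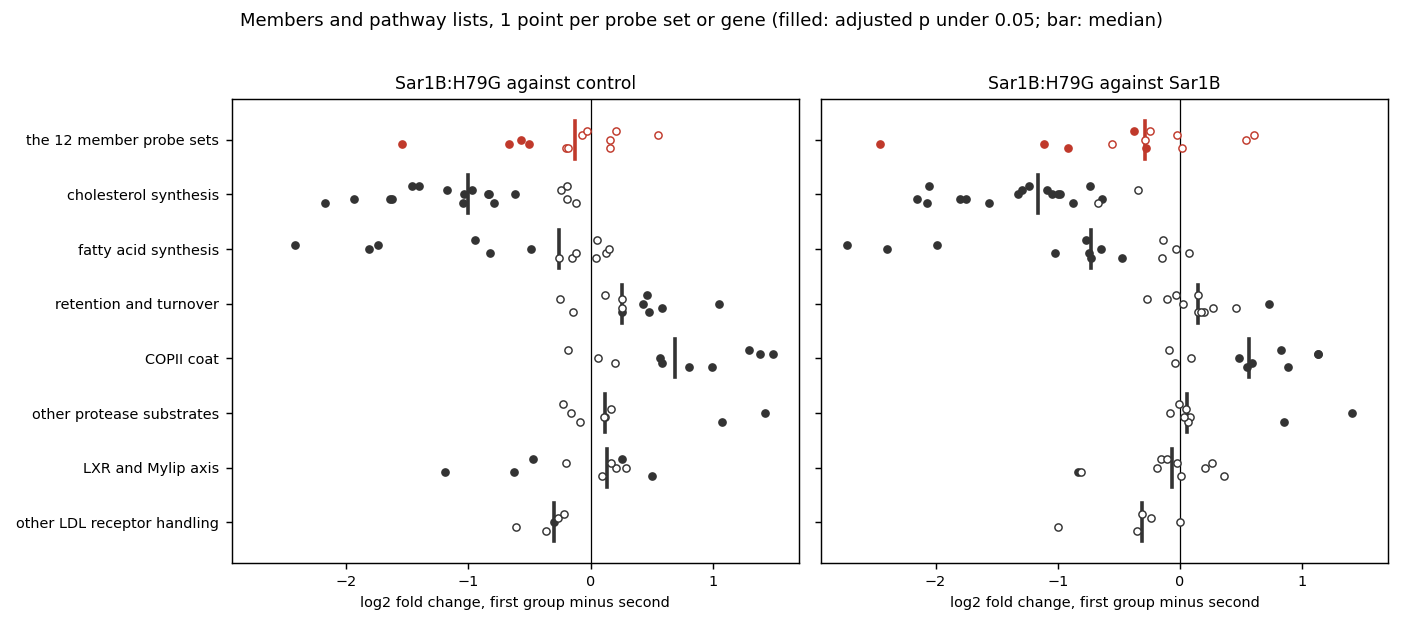
Log2 fold changes of the 12 member probe sets (top row) and of the genes of 7 pathway lists, 1 point per probe set or gene with the median as a bar, for Sar1B:H79G against control (left) and against Sar1B (right); filled points passed an adjusted p under 0.05. Cholesterol synthesis genes lie left of 0 at medians of −1.0 and −1.16, and COPII genes right of it at 0.69 and 0.57.

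Around Mylip, 10 genes of the LXR axis had no common direction in Sar1B:H79G against control: 2 were higher, 3 lower and 5 not called, at a median of 0.13 (13.4% of all genes called higher and 10.6% lower). Nr1h3, which encodes LXRα, was lower by −0.63 ± 0.06 (adjusted p = 0.0028), and Nr1h2, which encodes LXRβ, was higher by 0.50 ± 0.12 (adjusted p = 0.0299). Ube2d1, a ubiquitin-conjugating enzyme that works with IDOL, was lower by −1.19 ± 0.22 (adjusted p = 0.0160), and Lrp8, an IDOL target, was higher by 0.25 ± 0.07, just inside the threshold. Fewer of the 10 were called with either control line or Sar1B:H79G line 2 left out, where fewer of all probe sets were called as well. Against Sar1B, Nr1h3 alone was called, at −0.84 ± 0.06 (adjusted p = 0.0027, 7.18% of all genes called lower). More of the 10 were called with either Sar1B:H79G line left out, where fewer of all probe sets were called. Of 5 other genes that handle the LDL receptor, 1 was called, where 10.6% of all genes were called lower. It was Lrp1, an LDL receptor relative, at −0.30 ± 0.08 against control (adjusted p = 0.0430). That call was lost without any 1 of the control or Sar1B:H79G lines, fits in which fewer of all probe sets were called. Against Sar1B 0 of the 5 were called unless either Sar1B line was left out.

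The genes most like each member were found by Pearson's r over the 7 line means among 9431 genes. The line means of the leading members fell into separate groups, so r is given as a measure of likeness only. Insig1 and Srebf1 were each other's nearest gene (r = 0.995), followed by Trim3 and Pgap2 for Insig1 (0.995 and 0.994) and by Fdps and Trim3 for Srebf1 (0.993 and 0.989). Scap, by probe set 1389567_at, was nearest to Pmvk, Scd and Cpox (0.995, 0.991 and 0.989), of which Pmvk and Scd belong to the synthesis lists. The other Scap probe set had only r = 0.44 with this one. Srebf2 was nearest to Smtnl2, Ada and Paip1 (0.992, 0.989 and 0.988) and Mylip to Qng1, Ppil3 and Tmem97 (0.985, 0.982 and 0.979). Insig2 was nearest to Pofut2, Ddb1 and Mycbp (0.983, 0.980 and 0.977), and Mbtps1 to Lrrc71, Bpgm and Cadm1 (0.986, 0.986 and 0.984). Mbtps2, whose groups overlapped, had the lowest values of likeness, 0.945 with Wdr3 and 0.940 with both Crk and Csnk1g3.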

How the data were processed

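RNA of 7 lines was hybridised to 25 Affymetrix rat genome arrays. The deposited log2 values were made by the authors with loess normalisation and MAS 5 in CARMAweb, whose versions are not given in the sources used here. The log base was taken from the range of the values (1.643 to 15.408), and no detection calls were used. Of 31099 probe sets 57 array controls were left out, and 20826 of the rest had 1 gene symbol, 436 several and 9780 none in the annotation. All 12 member gene IDs were found in the RefSeq table, and 0 symbols changed.

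Arrays were averaged per line, and limma 3.58.1 in R 4.3.3 (statmod 1.5.0) was fitted to the 7 line means with 1 coefficient per group, for 6 comparisons. The residual degrees of freedom were 3 and the prior ones 3.16, so the number of lines limits the precision. Arrays of 2 groups do not overlap where the lowest of one lies above the highest of the other. p-values were adjusted over 31042 probe sets (Benjamini-Hochberg) and called under 0.05. Standard errors are those of the fit, and p-values rest on clones as replicates. The fit was checked on simulated data.

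Every member probe set was named. Of each of the 7 lists, counts and medians were given, with the 2 called rises and 2 called falls of largest fold in Sar1B:H79G against control, and the genes not called where few. For each member the 3 genes of highest r were named. The members and lists were chosen with earlier results of these data known. The alternatives tried took each array as a replicate, the line as a random block, quantile or median scaling, only probe sets above the median, only the groups compared, trend and robust options, line number as a block, each numbered line left out, an adjusted p under 0.01 and the mean of a gene's probe sets. Counts of the lists without each numbered line were added after seeing the data. The Sar1A line was never left out.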

Additional observations from a re-analysis of the deposited data

Results flagged for a closer look

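Within 48 sets of arrays (12 probe sets in 4 groups), 3 had 1 array far from the rest of its group by Dixon's rule. Its nominal rate of 1 in 20 assumes arrays of 1 common level. All groups but Sar1A pooled 2 clones, so that rate need not hold here. In the Sar1A line, array 1 read 11.81 for Srebf1 1388426_at, with the nearest at 11.65, and 10.44 for Scap 1389567_at, with the nearest at 10.26. In Sar1B line 2, array 2 read 7.06 for the dim Srebf2 probe set 1377489_at, with the nearest at 7.25.

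Sar1B:H79G differed from wild-type Sar1B by a direct test for Insig1 (−2.45, adjusted p = 0.0020), Srebf1 1388426_at (−1.12, 0.0063), Srebf1 1371104_at (−0.91, 0.0375), Scap 1389567_at (−0.28, 0.0443) and Mbtps1 (−0.38, 0.0458). It differed from Sar1A for Insig1 (−2.44, 0.0075) and Srebf1 1388426_at (−1.14, 0.0215).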

How the results depend on the processing

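The directions called against control for Insig1 and Srebf2 1371979_at, and against Sar1B for Insig1 and Srebf1 1388426_at, kept their call under all 14 alternatives. Over the 811 member values recomputed, 677 kept direction and side of the threshold, 68 gained a call, 43 lost it and 23 changed sign, all of these uncalled on both sides. The counts of members called, out of 12, moved most with what was taken as a replicate. With each array as a replicate they were 7 (Sar1B:H79G against control, where 52.3% of all probe sets were called), 7 (Sar1B against control, 42.2%), 6 (Sar1A against control, 36.2%), 10 (Sar1B:H79G against Sar1B, 31.8%), 9 (Sar1B:H79G against Sar1A, 23.2%) and 1 (Sar1A against Sar1B, 10.3%). With the line as a random block they were 7 (Sar1B against control, 26.4%), 4 (Sar1A against control, 19.3%), 10 (Sar1B:H79G against Sar1B, 22.2%) and 5 (Sar1B:H79G against Sar1A, 14.6%). With only the groups compared they were 3 (8.69%), 2 (7.51%), 2 (4.77%) and 0 (where 0 of all probe sets were called) in the same 4 comparisons. With quantile scaling Sar1B against control gave 2 (8.20% of all probe sets called), and with equal medians 2 (7.83%). The trend and robust options gave 2 there (11.3%). Sar1B:H79G against Sar1B gave 3 with equal medians (8.45%). At an adjusted p under 0.01 the counts were 2 in Sar1B:H79G against control (6.75%) and 0 in Sar1B against control (0.200%). They were 2 in Sar1B:H79G against Sar1B (2.54%) and 1 in Sar1B:H79G against Sar1A (0.403%). The counts in these comparisons also moved with some of the numbered lines left out, and the share of all probe sets called moved as well. The cause of these moves was not tested.

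Line numbers name clones and pair nothing by their labels, and same-numbered lines deviated together with correlations of 0.0752, 0.1917 and 0.0071. With the line number as a block, the count was 4 in Sar1B:H79G against control (22.6% of all probe sets called). It was 1 in Sar1B against control (6.46%) and 3 in Sar1B:H79G against Sar1B (8.45%), where the calls of Scap and Mbtps1 were lost.

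The values that changed sign when a line was left out ranged, for Sar1B:H79G against control, over −0.433 to 0.038 (Srebf1 1371104_at), −0.116 to 0.427 (Insig2 1389377_at), −0.098 to 0.030 (Mbtps1) and −0.049 to 0.363 (Mbtps2). For Sar1B against control they ranged over −0.185 to 0.088 (Insig2 1393690_at), −0.036 to 0.316 (Mbtps2) and −0.010 to 0.123 (Mylip). For Sar1A against control they were −0.078 to 0.010 (Srebf2 1377489_at), −0.11 to 0.10 (Insig2 1389377_at) and −0.11 to 0.24 (Mbtps2). Against Sar1B and Sar1A, Mbtps2 ranged over −0.19 to 0.22 and −0.12 to 0.30 in Sar1B:H79G lines, and Insig2 1389377_at over −0.11 to 0.43 against Sar1A. With quantile scaling Scap 1389567_at was −0.028 in Sar1B and −0.029 in Sar1A against control, Mylip −0.009 in Sar1B and Mbtps2 −0.011 in Sar1A, and Insig2 1389377_at in Sar1A against control was 0.018 with arrays as replicates and 0.008 with the random block.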
